A study of Caenorhabditis elegans with 24 samples.

Results

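The 9 genes described here encode the main transcription factors that *Caenorhabditis elegans* uses against heat, oxidative damage, starvation, low oxygen and misfolded protein in the endoplasmic reticulum (ER), together with 2 proteins that hold the heat-shock factor in check. They were chosen by name, with earlier results of these data known, and matched to their WormBase gene IDs. All 9 were found among the 20447 genes of the count tables. RNA-seq and ribosome profiling were performed on the same lysates of whole adult animals. The noNSUN strain carries catalytic point mutations in the RNA methyltransferase genes *nsun-4* (*mj457*), *nsun-2* (*mj458*) and *nsun-1* (*mj473*) and a deletion in *nsun-5* (*tm3898*), whereas the wild type (WT) is the N2 strain. Adults raised at 20 °C were moved to liquid culture with HB101 bacteria for 4 h at 27 °C or at 20 °C, which gave 4 groups: noNSUN at 27 °C, noNSUN at 20 °C, WT at 27 °C and WT at 20 °C, with 3 replicates each for both assays (24 libraries). The noNSUN animals carry all of these alleles together, so no single methyltransferase can be singled out, and whole animals mix all tissues, so fewer cells of a type and less RNA per cell cannot be told apart.

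Most of these factors are known to be controlled as proteins. HSF-1, the heat-shock factor, trimerises and switches on chaperone genes when proteins unfold, and HSB-1 and DDL-1 bind it and keep it inactive. DAF-16, the FOXO factor of the insulin pathway, and SKN-1, the Nrf factor of the oxidative stress response, are held out of the nucleus by phosphorylation. PQM-1 is a zinc-finger factor that occupies the nucleus when DAF-16 does not, HLH-30 is the TFEB homologue that drives autophagy and lysosome genes in starvation, and HIF-1 is the hypoxia factor, hydroxylated by EGL-9 and degraded while oxygen is present. XBP-1 differs from the others in that its messenger RNA is itself the switch: the ER sensor IRE-1 cuts out a short stretch of the *xbp-1* transcript, and the rejoined message encodes the active factor of the unfolded protein response.

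The stretch of *xbp-1* that holds the pair of IRE-1 cut sites is shown because it decides which footprints of this gene were counted. It lies in an exon of the coding sequence at chrIII:4194538-4194589 (WBcel235, plus strand), with both CNGCNG-type loop motifs in capitals.
xbp-1 cut sites: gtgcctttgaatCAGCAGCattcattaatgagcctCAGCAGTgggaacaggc
The joined exons of the annotated transcript have 4 matches to CNGCNG and only this pair has 23 nt between its cut points. The annotated reading frame has 287 codons. Without the 23 nt it would have 335 codons, and the frame would change after codon 173. Footprints were counted only in the annotated frame, so ribosomes on the changed frame of a spliced message were not part of the counts given below, and the RNA counts do not tell the spliced and unspliced forms apart.

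Next are the 200 nt upstream of the annotated start of *xbp-1* and of a target gene of HSF-1, of XBP-1 and of DAF-16 whose RNA rose at 27 °C (values below), with the motif found by exact letters in capitals. They are from the WBcel235 genome and each is written 5′ to 3′ on the strand of its gene.
hsp-16.2, chrV:1804958-1805157, minus strand, heat-shock element: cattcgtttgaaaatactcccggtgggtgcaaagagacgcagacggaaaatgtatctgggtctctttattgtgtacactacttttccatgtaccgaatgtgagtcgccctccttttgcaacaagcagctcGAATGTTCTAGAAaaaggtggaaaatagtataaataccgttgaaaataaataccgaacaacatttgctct
hsp-4, chrII:7352646-7352845, minus strand, unfolded protein response element: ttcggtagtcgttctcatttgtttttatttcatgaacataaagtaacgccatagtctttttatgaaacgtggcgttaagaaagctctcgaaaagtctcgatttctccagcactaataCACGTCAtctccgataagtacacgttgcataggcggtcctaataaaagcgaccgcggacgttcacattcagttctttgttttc
mtl-1, chrV:6691864-6692063, minus strand, DAF-16 binding element: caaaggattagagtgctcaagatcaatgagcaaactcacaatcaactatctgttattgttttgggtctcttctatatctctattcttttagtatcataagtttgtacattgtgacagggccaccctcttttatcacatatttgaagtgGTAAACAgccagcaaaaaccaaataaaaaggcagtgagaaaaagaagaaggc
xbp-1, chrIII:4193609-4193808, plus strand, DAF-16 binding element and DAF-16-associated element: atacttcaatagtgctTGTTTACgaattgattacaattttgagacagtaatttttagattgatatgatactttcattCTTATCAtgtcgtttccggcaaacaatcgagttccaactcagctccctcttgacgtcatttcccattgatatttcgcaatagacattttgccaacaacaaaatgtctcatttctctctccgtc
The letters searched, on both strands, were TTC-NN-GAA-NN-TTC (hyphens only separate its blocks) for the heat-shock element, GTAAACA for the DAF-16 binding element, CTTATCA for the DAF-16-associated element (the element linked to PQM-1), ACGTG for the hypoxia response element, CACGTG for the E-box of HLH-30 and TGACGTG for the unfolded protein response element. The E-box and the unfolded protein response element both contain ACGTG. Over the 19973 windows of the genome 1.24% held the heat-shock element, 3.47% the DAF-16 binding element, 7.07% the DAF-16-associated element, 20.4% the hypoxia response element, 4.22% the E-box and 2.01% the unfolded protein response element. Among the 9 genes, *xbp-1* alone had any match in this window. A match is a description of letters and not a shown binding site.

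The RNA libraries held 1918731 to 3412334 counts and the footprint libraries 22761 to 396184, so that 3 counts, taken as the floor, stood for 0.879 to 1.56 CPM (counts adjusted for library depth) in RNA and 7.57 to 132 CPM in footprints. As a check of the labels, *nsun-5* RNA was lower in noNSUN than in WT, by a log2 difference of -0.45 at 27 °C and -0.86 at 20 °C (adjusted p = 1.00 and 0.37), and its difference at 20 °C passed the test with the replicate number as a block (adjusted p = 0.039). In footprints *nsun-5* had 2 to 7 counts per library in noNSUN and 0 to 6 in WT and was not lower in noNSUN, too few counts to check the labels of those libraries. The other 3 *nsun* genes carry point mutations, which a count does not show. Markers of intestine, germline, body muscle and neurons were above the floor in every library, while each of the 5 sperm markers was at 0 in at least 1 library (summed level 0 to 2.37 CPM). The replicate 1 libraries stood apart from replicates 2 and 3: their summed female germline markers were lower (2544 to 3683 against 3937 to 4605 CPM), and those of body muscle (5342 to 9739 against 4358 to 5230), neurons (388 to 542 against 281 to 345) and moulting epidermis (692 to 1355 against 557 to 681) were higher. Single markers did not all follow these sums. Among the neuron markers *egl-3*, *egl-21* and *rab-3* were highest in replicate 1 in every group, while *snb-1* was lowest in every group and *unc-119* varied. The body muscle marker *myo-3* was not highest in replicate 1 at 27 °C, and *bli-1* of the epidermis list lay near the floor. Almost all of the summed intestine markers was RNA of the yolk protein genes *vit-2* and *vit-6*, and these sums moved with heat. They were 43001, 53126 and 60020 CPM in noNSUN at 27 °C, against 65337, 69651 and 73334 CPM at 20 °C, and 44433, 50598 and 52672 CPM in WT at 27 °C, against 37053, 72794 and 75349 CPM at 20 °C. They did not overlap in noNSUN, and in WT they overlapped through the replicate 1 library at 20 °C alone. The other intestine markers did not move alike. *ges-1* had 48.3, 43.4 and 37.0 CPM in noNSUN at 27 °C, against 37.9, 35.9 and 35.5 CPM at 20 °C. Its libraries overlapped in both genotypes. *ifb-2* overlapped in both genotypes. *elt-2* overlapped in noNSUN and was lower in WT at 27 °C (10.6, 15.7 and 11.3 CPM, against 22.3, 18.5 and 17.9 CPM at 20 °C). The summed levels of the other 5 lists overlapped between 27 and 20 °C within each genotype.

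All 9 genes were measured well above the floor in RNA. On a scale of CPM per kilobase of exon, which allows genes to be compared, *xbp-1* had the highest mean over the 12 libraries (173), above 95.3% of the genes tested. The inhibitor gene *hsb-1* (87.8), *skn-1* (85.9) and *hif-1* (85.7) came next, with *daf-16* (65.4), *hsf-1* (48.6) and *hlh-30* (43.3) after them. The lowest were *pqm-1* (26.8) and *ddl-1* (23.9), near the median of all genes (55.0% and 51.4% of genes below). Of the 2 HSF-1 inhibitors *hsb-1* was thus above *hsf-1* and *ddl-1* below it on this scale. The count of *ddl-1* is uncertain, because 99 of its 731 exon bases are shared with *sam-4* on the same strand. *skn-1* shares 41 bases with *csn-5*, and *daf-16* 84 bases with a non-coding RNA, on the other strand, and the strand setting of the counting was not given in the sources used here.

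The 9 RNAs differed little between the temperatures, with log2 changes of -0.58 to 0.48. Of the 9 RNAs, 0 passed the test (edgeR, adjusted p below 0.05) at 27 against 20 °C in noNSUN and 0 in WT, where 1.04% and 0.943% of the 10815 genes tested passed. At an unadjusted p below 0.05 there were 3 of 9 in each genotype, against 9.10% of all genes in noNSUN and 9.76% in WT. When the replicate number, which the samples of the different groups shared, was added to the fit as a block, *hsf-1* (lower) and *xbp-1* (higher) passed in noNSUN, and *hsf-1* (lower), *hif-1* (lower) and *xbp-1* (higher) in WT. With that block 4.1% and 4.24% of all genes passed. The median log2 change of the 9 was -0.14 in noNSUN and -0.10 in WT, beside 0.01 and -0.01 over all genes tested. The summed intestine markers, almost all of them yolk RNA, differed between the same groups, as given above, and their part in these changes was not tested.

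**Figure D1:**
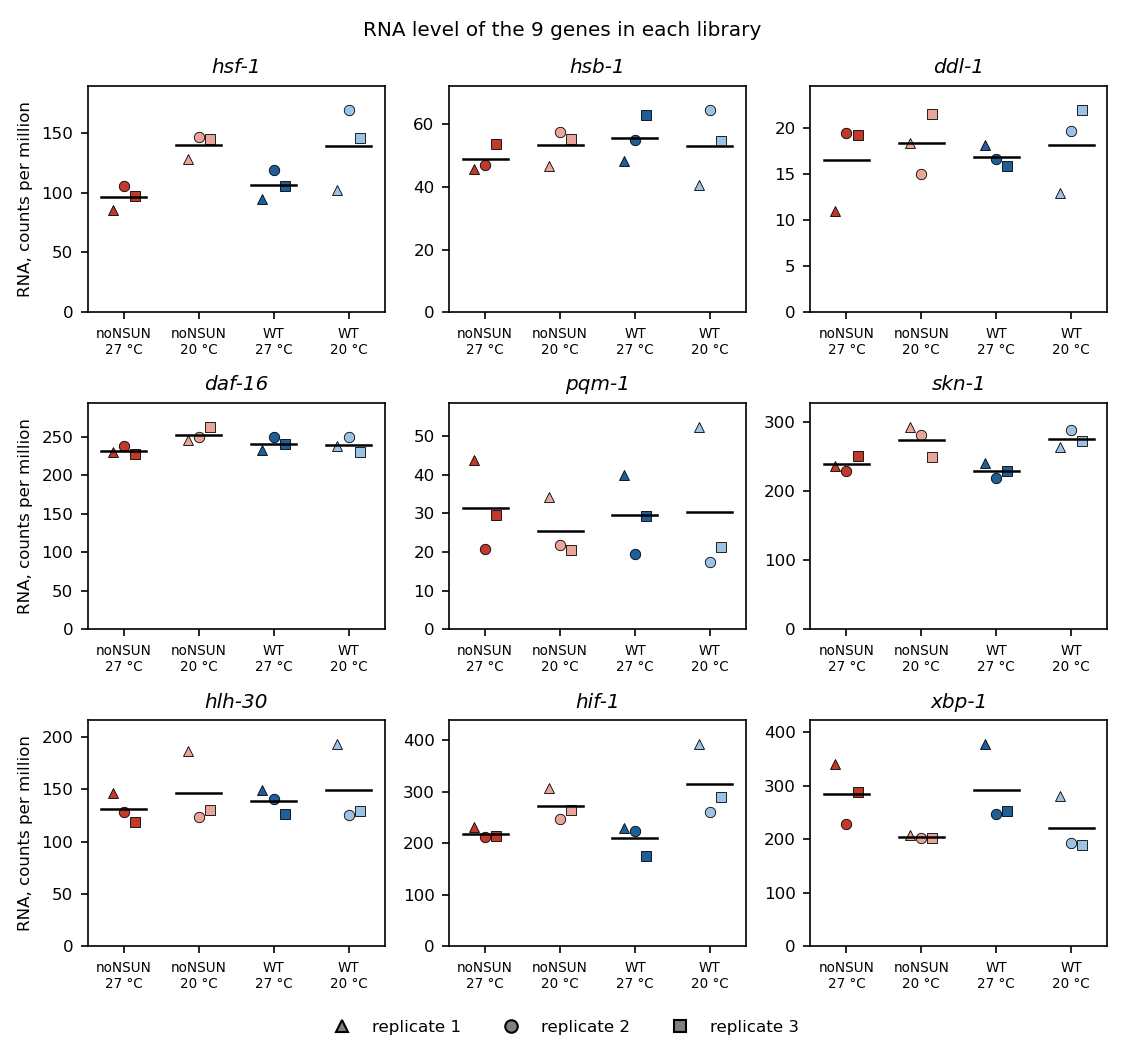
RNA level (CPM, linear axis from 0) of each of the 9 genes in the 12 RNA libraries, by group, with marker shapes for replicates 1, 2 and 3 and a bar at the mean of 3. *hif-1* sits lower at 27 °C than at 20 °C in both genotypes with no overlap, and replicate 1 (triangles) is the highest of its group for *pqm-1* in all 4 groups.

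*hsf-1*, the heat-shock factor gene (WBGene00002004, chromosome I, 11953507 to 11963085, minus strand), had 85.6, 105.2 and 97.1 CPM in noNSUN at 27 °C, against 128.4, 146.6 and 144.7 CPM in noNSUN at 20 °C. In WT it had 94.99, 119.1 and 105.6 CPM at 27 °C, against 101.8, 168.8 and 145.9 CPM at 20 °C. Every noNSUN library at 27 °C was below every one at 20 °C, while in WT the replicate 1 library at 20 °C (101.8 CPM) fell among those at 27 °C. The log2 change was -0.54 (SE 0.16) in noNSUN and -0.38 (SE 0.16) in WT (edgeR adjusted p = 0.19 and 0.46), and with the replicate block the adjusted p was 0.0034 and 0.046. In noNSUN the blocked call held in all 12 fits that left out 1 library and in 2 of 3 that left out a replicate number (not without replicate 3, adjusted p = 0.20). In WT it held in 2 of 12 (without noNSUN replicate 1 at 20 °C or WT replicate 1 at 20 °C) and in 1 of 3 (without replicate 1), and the log2 change in those 15 fits was -0.51 to -0.27. Without the WT replicate 1 library at 20 °C, *hsf-1* passed without a block too, in noNSUN (-0.55, adjusted p = 0.0096) and in WT (-0.58, adjusted p = 0.016).

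The HSF-1 inhibitors showed no change that passed the test. *hsb-1*, which encodes the heat-shock factor binding protein (WBGene00002002, chromosome IV), had 45.5, 47.1 and 53.5 CPM in noNSUN at 27 °C, against 46.8, 57.4 and 55.4 at 20 °C. Its WT libraries had 48.2, 55.0 and 63.0 CPM at 27 °C, against 40.4, 64.4 and 54.6 at 20 °C, so that the groups overlapped in both genotypes. The 95% interval of its log2 change was -0.46 to 0.21 in noNSUN and -0.28 to 0.39 in WT. *ddl-1* (WBGene00019125, chromosome II), whose protein binds HSF-1 together with HSB-1, ranged over the 12 libraries between 10.9 and 21.9 CPM (median 18.2), with log2 changes of -0.14 (SE 0.26) in noNSUN and -0.10 (SE 0.26) in WT.

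*hif-1*, the hypoxia factor gene (WBGene00001851, chromosome V, 20780407 to 20785260, plus strand), had 230.4, 211.4 and 213.8 CPM in noNSUN at 27 °C, against 306.2, 247.0 and 265.3 CPM at 20 °C. In WT it had 229.3, 223.5 and 175.3 CPM at 27 °C, against 391.8, 259.9 and 289.6 CPM at 20 °C. It was the only one of the 9 whose libraries at 27 °C lay below all those at 20 °C in both genotypes, a pattern that 2.84% of all genes tested showed. The log2 change was -0.32 (SE 0.15) in noNSUN and -0.58 (SE 0.15) in WT (adjusted p = 0.57 and 0.12). With the block it was called in WT (adjusted p = 0.0023) and not in noNSUN (adjusted p = 0.10). The blocked WT call held in all 12 fits without 1 library and in 2 of 3 without a replicate number (not without replicate 3, adjusted p = 0.14). The difference between the genotypes in the log2 change was 0.26 (SE 0.22, adjusted p = 1.00), with a 95% interval of -0.16 to 0.69.

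*xbp-1*, the unfolded protein response factor gene (WBGene00006959, chromosome III, 4193809 to 4195358, plus strand), had 339.6, 228.0 and 287.4 CPM in noNSUN at 27 °C, against 208.5, 203.1 and 202.0 CPM at 20 °C. In WT it had 377.2, 246.2 and 253.2 CPM at 27 °C, against 280.2, 193.6 and 188.8 CPM at 20 °C. The noNSUN groups did not overlap, and in WT the replicate 1 library at 20 °C (280.2 CPM) lay among those at 27 °C. The log2 change was 0.48 (SE 0.19) in noNSUN and 0.41 (SE 0.19) in WT (adjusted p = 0.45 and 0.53), and with the block the adjusted p was 0.020 and 0.040. These blocked calls were less steady than that of *hsf-1* in noNSUN: they held in 8 of 12 fits without 1 library in noNSUN and in 4 of 12 in WT, always with a positive log2 change. The noNSUN call was lost without noNSUN replicate 1 or 3 at 27 °C or at 20 °C (adjusted p = 0.10, 0.19, 0.16 and 0.058), and without replicate 3 altogether. The WT call was kept without noNSUN replicate 3 at 27 °C, noNSUN replicate 1 or 2 at 20 °C, WT replicate 1 at 20 °C or replicate 1 altogether, and lost without any other library, including each WT library at 27 °C (adjusted p = 0.30, 0.083 and 0.078).

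*skn-1*, the oxidative stress factor gene (WBGene00004804, chromosome IV, 5651039 to 5660384, minus strand), had 236.3, 229.4 and 250.4 CPM in noNSUN at 27 °C, against 292.4, 280.5 and 249.6 CPM at 20 °C. In WT it had 240.6, 218.7 and 229.1 CPM at 27 °C, against 263.2, 289.1 and 272.0 CPM at 20 °C. The WT groups did not overlap and the noNSUN groups overlapped by the lowest library at 20 °C (249.6 CPM) and the highest at 27 °C (250.4 CPM). The log2 change of -0.20 (SE 0.09) in noNSUN and -0.26 (SE 0.09) in WT did not pass the test with or without the block (adjusted p = 0.54 and 0.29, and with the block 0.24 and 0.096).

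*daf-16*, the FOXO gene (WBGene00000912, chromosome I, 10750498 to 10776703, plus strand), was the most even of the 9, with 227.3 to 262.3 CPM over all 12 libraries. It had 230.8, 237.7 and 227.3 CPM in noNSUN at 27 °C, against 245.3, 249.3 and 262.3 CPM at 20 °C, which did not overlap, although the log2 change was only -0.12 (SE 0.08, adjusted p = 0.75). In WT it had 232.7, 249.1 and 240.9 CPM at 27 °C, against 237.7, 249.9 and 230.1 CPM at 20 °C. The WT log2 change was 0.01 with a 95% interval of -0.15 to 0.17.

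*pqm-1* (WBGene00004096, chromosome II) was the least even between replicates. It had 43.7, 20.8 and 29.7 CPM in noNSUN at 27 °C, against 34.1, 21.8 and 20.5 CPM at 20 °C, and in WT 40.0, 19.5 and 29.2 CPM at 27 °C, against 52.3, 17.4 and 21.3 CPM at 20 °C. The 95% interval of its log2 change, -0.49 to 1.11 in noNSUN and -0.82 to 0.78 in WT, leaves room for a change in either direction. The WT value of -0.02 became 0.31 without replicate 1 and 0.62 without the WT replicate 1 library at 20 °C, and was not called in any of these fits.

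*hlh-30*, the TFEB gene (WBGene00020930, chromosome IV), had 146.1, 128.3 and 119.02 CPM in noNSUN at 27 °C, against 187.0, 123.9 and 130.0 CPM at 20 °C. In WT it had 149.0, 140.9 and 126.1 CPM at 27 °C, against 193.1, 125.9 and 129.2 CPM at 20 °C. Both pairs of groups overlapped, and the log2 changes of -0.16 and -0.11 (SE 0.19 each) were within their error.

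In all, 4 of 9 genes had groups that did not overlap between 27 and 20 °C in noNSUN (*hsf-1*, *daf-16* and *hif-1* lower, *xbp-1* higher), where 18.8% of all genes did, and 2 of 9 in WT (*skn-1* and *hif-1*, both lower), where 12.9% did. The order of the 4 group means was also close for most genes. Between neighbours in that order the libraries overlapped for every gene, with 1 exception, *hif-1* in noNSUN at 27 °C and noNSUN at 20 °C.

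**Figure D2:**
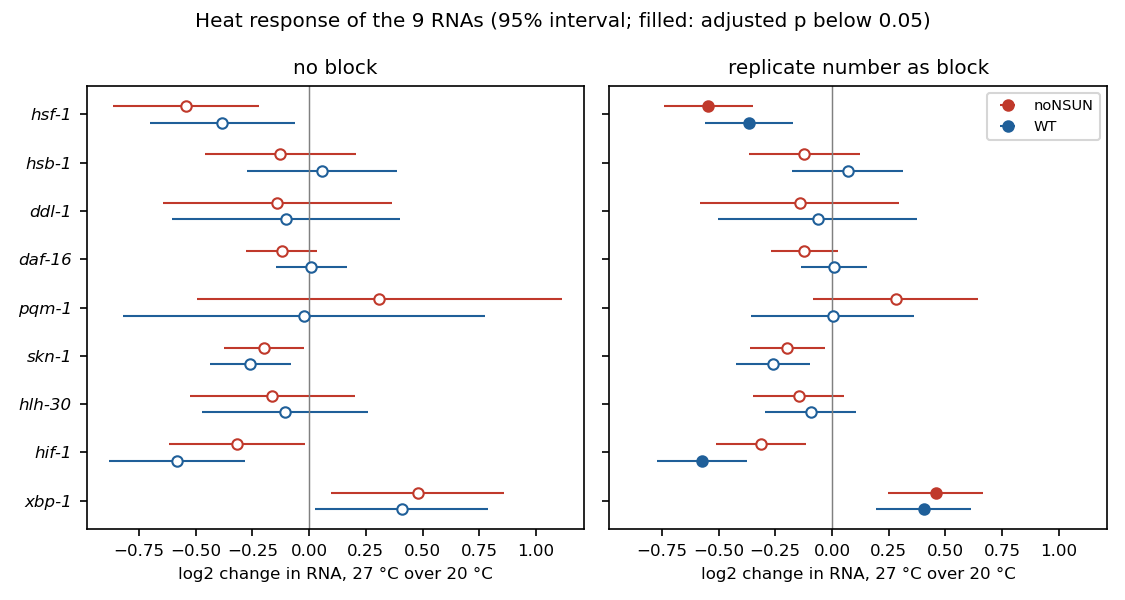
Log2 change in RNA at 27 °C over 20 °C for the 9 genes in noNSUN and WT, without a block (left panel) and with the replicate block (right panel), where bars are 95% intervals and filled points have an adjusted p below 0.05. No point is filled without the block, and with it *hsf-1* and *xbp-1* are filled in both genotypes and *hif-1* in WT.

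Between noNSUN and WT no difference was detected in any of the 9 RNAs. Of 9 genes, 0 passed the test between noNSUN and WT at 27 °C and 0 at 20 °C, with or without the block, where 0.0277% and 0.0832% of all genes passed (0.213% and 1.48% with the block). At an unadjusted p below 0.05 the count was also 0 of 9 at each temperature, against 2.83% and 4.54% of all genes. The log2 differences were -0.18 to 0.07 at 27 °C and -0.26 to 0.08 at 20 °C, and at neither temperature did the noNSUN and WT libraries of any of the 9 separate (9.06% and 8.46% of all genes did). The narrowest 95% intervals were those of *daf-16*, -0.21 to 0.10 at 27 °C and -0.08 to 0.23 at 20 °C, and the widest those of *pqm-1*, -0.74 to 0.88 and -1.05 to 0.53. The heat response itself did not differ detectably between the genotypes for any of the 9 (log2 differences -0.18 to 0.33, adjusted p = 1.00 for each, 0 at an unadjusted p below 0.05). Over all 10815 genes this comparison called 0 genes in edgeR, and 1.16% had an unadjusted p below 0.05.

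Replicate 1 stood apart for several of these genes. In all 4 groups it was the highest library for *pqm-1* (1.61 to 2.70 times the mean of replicates 2 and 3), *hlh-30* (1.116 to 1.51 times), *hif-1* (1.08 to 1.43 times) and *xbp-1* (1.03 to 1.51 times). It was the lowest in all 4 for *hsf-1* (0.647 to 0.882 times) and *hsb-1* (0.680 to 0.905 times). Over all genes tested, replicate 1 was the highest in all 4 groups for 17.1% and the lowest for 14.7%. The marker sums given above moved with replicate 1 as well, and their part in the levels of these genes was not tested. Without replicate 1, and with no block, *hsf-1* (-0.53, adjusted p = 0.00062) and *xbp-1* (0.35, adjusted p = 0.014) passed in noNSUN. In WT *hsf-1* (-0.48, adjusted p = 0.0024), *skn-1* (-0.33, adjusted p = 0.020), *hif-1* (-0.46, adjusted p = 0.0021) and *xbp-1* (0.38, adjusted p = 0.011) passed, in a fit that called 587 genes in noNSUN and 583 in WT, against 112 and 102 with all replicates.

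**Figure D3:**
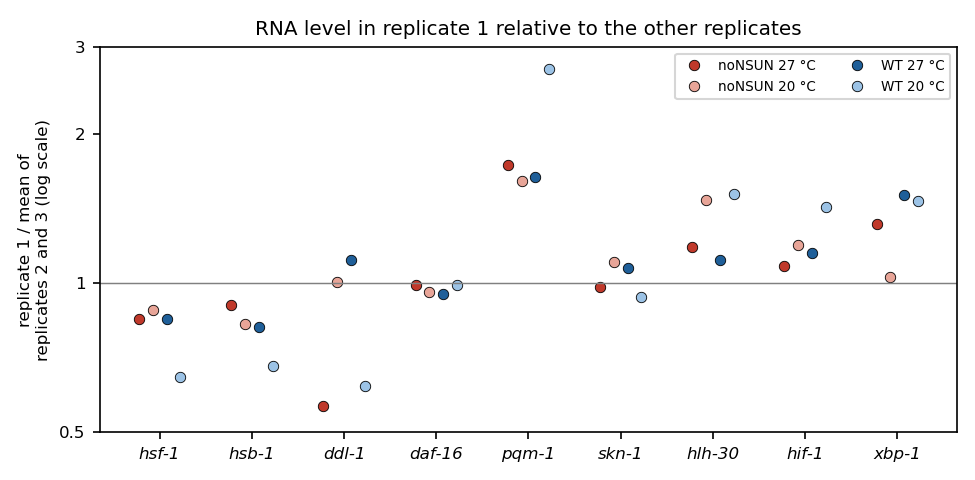
RNA level of each gene in replicate 1 divided by the mean of replicates 2 and 3 (log axis), 1 point per group. Points lie above 1 in all 4 groups for *pqm-1*, *hlh-30*, *hif-1* and *xbp-1*, and below 1 in all 4 for *hsf-1* and *hsb-1*.

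The genes with the most similar profile over the 12 RNA libraries were listed by Pearson's r of log2 CPM among 8080 genes, as a description that shares the same libraries and includes the replicate 1 pattern. They were *R11H6.5* (0.96) for *hsf-1*, *tofu-6* (0.95) and *Y38A10A.7* (0.94) for *hsb-1*, and *pid-4* (0.88) and *eif-4A3* (0.87) for *ddl-1*. For *hif-1* they were *fkb-5* (0.97) and *mak-1* (0.96), for *xbp-1* *ugt-21* (0.96) and *W05H7.1* (0.95), and for *skn-1* *ZK1127.5* (0.94) and *clec-50* (0.93). *pqm-1* was closest to *arrd-14* and *inx-5* (0.97 each), *hlh-30* to *vpat-1* (0.96) and *sups-1* (0.95), and *daf-16* to *atg-16.1* (0.80) and *gtf-2F1* (0.78). The values for *daf-16* were the lowest of these. Between *hsf-1* and *xbp-1* themselves r was -0.90 over the 12 libraries.

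Ribosome footprints were few, and 8 of the 9 genes did not pass the filter on low counts. Over all 12 libraries *ddl-1* had 8 footprint counts, *pqm-1* 24, *hsb-1* 43, *daf-16* 79, *hsf-1* 84, *skn-1* 101, *hlh-30* 121 and *hif-1* 132, while *xbp-1* had 308 and alone passed the filter on low counts. *xbp-1* passed through its libraries at 27 °C, as most of its libraries at 20 °C were below the level that the filter asks for. The sum for *hif-1* was made up of 52 counts in noNSUN at 27 °C and 27 in noNSUN at 20 °C, with 14 in WT at 27 °C and 39 in WT at 20 °C, and that for *hsf-1* of 44, 7, 11 and 22 in the same order of groups. These sums are not adjusted for depth, which differed between the groups. In the fit that kept genes with low counts, 0 of these 8 genes passed in any footprint comparison (lowest edgeR adjusted p = 0.73), with SEs of the log2 differences of 0.48 to 2.83. At an unadjusted p below 0.05 there was 1, *pqm-1* between noNSUN and WT at 20 °C, from 7 against 1 counts. The log2 change with heat in that fit was 1.00 (SE 0.65) in noNSUN and -0.48 (SE 0.64) in WT for *hsf-1*, and -0.61 (SE 0.48) and -0.94 (SE 0.55) for *hif-1*. Per kilobase, the log2 ratio of footprints on coding sequence to RNA was highest for *xbp-1* (0.87, above 74.1% of 10684 genes), *hsb-1* (0.58) and *hlh-30* (0.52), against a median of 0.02 over all these genes. It was -0.05 for *pqm-1*, -0.55 for *daf-16*, -0.62 for *hsf-1*, -0.68 for *hif-1*, -0.91 for *skn-1* and -1.56 for *ddl-1*, the last from 8 counts.

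Footprints on *xbp-1* rose at 27 °C in WT, and in noNSUN they passed the test only with the replicate number as a blocking factor (log2 1.23, edgeR adjusted p = 0.021). Footprint samples of the same number did not deviate together (mean r 0.077), so the reason for the block in RNA did not hold for footprints. The noNSUN libraries held 81, 88 and 16 counts at 27 °C (475.7, 213.9 and 494.5 CPM), against 14, 5 and 10 counts at 20 °C (156.2, 90.6 and 293.2 CPM). The WT libraries held 42, 13 and 9 counts at 27 °C (399.6, 383.7 and 394.3 CPM), against 8, 15 and 7 counts at 20 °C (155.7, 109.4 and 107.6 CPM). In noNSUN a library at 27 °C (213.9 CPM) was below a library with 10 counts at 20 °C (293.2 CPM). In WT every library at 27 °C was above every one at 20 °C, a pattern in that direction that 6.59% of the 1624 genes tested showed. The log2 change was 1.18 (SE 0.39, edgeR adjusted p = 0.094) in noNSUN, where 3.45% of genes tested were called, and 1.71 (SE 0.41, adjusted p = 0.023) in WT, where 1.29% were. Because *xbp-1* entered this test through its libraries at 27 °C, its call is not independent of the filter, and these shares are no measure of it. The WT call was lost when genes with low counts were kept in the fit (1.55, adjusted p = 0.099), and in 5 of 12 fits without 1 library and 2 of 3 without a replicate number. Those libraries were WT replicates 1, 2 and 3 at 27 °C (adjusted p = 0.16, 0.082 and 0.063) and WT replicates 2 and 3 at 20 °C (0.19 and 0.12), and the numbers were 2 and 3. In all 15 fits the log2 change lay between 1.57 and 1.86. The noNSUN value was called in 2 of the 12 fits without 1 library, without replicate 2 at 27 °C (1.57, adjusted p = 0.014) or replicate 3 at 20 °C (1.52, adjusted p = 0.043) of noNSUN. Without replicate 1 it was 0.73.

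The difference between the genotypes in this footprint response, noNSUN minus WT, was -0.54 (SE 0.58, adjusted p = 0.96) with a 95% interval of -1.67 to 0.60, so that the data do not tell the responses of *xbp-1* apart, nor show that they are alike. Between noNSUN and WT the log2 difference in *xbp-1* footprints was -0.11 (SE 0.35) at 27 °C and 0.42 (SE 0.46) at 20 °C (adjusted p = 0.98 and 0.70), where 0.0616% and 1.72% of genes were called.

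Footprints of *xbp-1* relative to its RNA in the same lysate were 1.40, 0.938 and 1.72 in noNSUN at 27 °C, against 0.749, 0.446 and 1.45 in noNSUN at 20 °C. In WT these ratios of footprint CPM to RNA CPM were 1.06, 1.56 and 1.56 at 27 °C, against 0.556, 0.565 and 0.570 at 20 °C. The WT ratios did not overlap and those of noNSUN did. The share of all genes whose ratios separate in this way was not counted. The WT ratios at 20 °C rest on 8, 15 and 7 footprint counts, so their closeness is no measure of precision. In the model over both assays the log2 change in translation efficiency was 0.68 (SE 0.47) in noNSUN and 1.29 (SE 0.50) in WT, and neither passed the test (edgeR adjusted p = 0.57 and 0.81), where 0% of 1599 genes were called in either genotype. At an unadjusted p below 0.05, 11.8% of genes were found in noNSUN and 6.00% in WT. *xbp-1* entered this model through its footprint libraries at 27 °C. Its ratios and its changes in efficiency with heat are thus not independent of the filter on low counts. Between noNSUN and WT the difference in translation efficiency of *xbp-1* was -0.11 at 27 °C and 0.50 at 20 °C (adjusted p = 1.00 and 0.73), where 0% and 0.25% of genes were called. The footprints counted were those in the annotated frame, which spliced and unspliced messages share up to codon 173, so they do not tell the 2 forms apart before the cut.

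**Figure D4:**
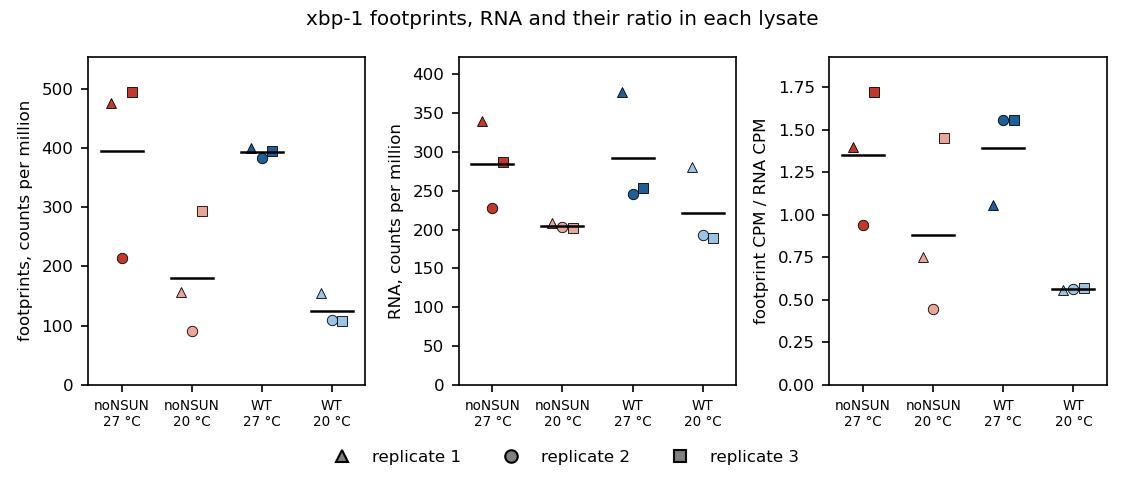
*xbp-1* footprints (left), RNA (middle, both in CPM) and their ratio (right) in each of the 12 lysates, with marker shapes for replicates and a bar at the mean of 3; axes start at 0. The 3 WT lysates at 27 °C have ratios of 1.06 to 1.56 and the 3 at 20 °C 0.556 to 0.570, while the noNSUN groups overlap. The WT ratios at 20 °C rest on 8, 15 and 7 footprint counts.

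Upstream partners and regulators were examined next, in 6 lists of 55 genes of which 54 passed the filter on low counts. Of these 54, 0 passed the test in RNA at 27 against 20 °C in noNSUN and 0 in WT, where 1.04% and 0.943% of all genes did. With the block 4 passed in noNSUN and 2 in WT, all higher, where 4.1% and 4.24% of all genes passed in either direction and 1.86% and 1.82% higher, so that the counts are too small to set these lists apart. The median log2 change of the 54 was 0.01 in noNSUN and -0.03 in WT. They are given as values only. The genes that passed with the block (named after their values were seen, where not the most abundant of a list) were *hsp-90*, whose chaperone protein holds heat-shock factors inactive, in both genotypes, *par-5*, a 14-3-3 protein that retains DAF-16 in the cytoplasm, in both genotypes, and *daf-41*, an HSP90 co-chaperone, and *atf-4*, a factor of the PERK branch of ER stress, in noNSUN. The log2 change in noNSUN was 0.38 for *daf-41* (adjusted p = 0.096, with the block 0.011) and 0.60 for *atf-4* (adjusted p = 0.21, with the block 0.029).

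Of the HSF-1 partners (5 tested), *hsp-90* averaged 3183 ± 327 CPM in noNSUN at 27 °C and 2555 ± 98.8 CPM at 20 °C, and 3865 ± 356 CPM in WT at 27 °C and 2813 ± 56.0 CPM at 20 °C (SD, n = 3 each), with edgeR adjusted p = 0.33 and 0.091, and 0.034 and 0.0023 with the block. The constitutive HSP70 gene *hsp-1* had log2 changes of 0.28 in noNSUN and 0.18 in WT (SE 0.12 each, not called). Of the insulin pathway and DAF-16 partners (18 tested) *par-5* averaged 814 ± 48.6 CPM in noNSUN at 27 °C and 655 ± 48.2 CPM at 20 °C, and 828 ± 40.1 CPM in WT at 27 °C and 654 ± 40.7 CPM at 20 °C (SD, n = 3 each). Its adjusted p was 0.19 in noNSUN and 0.15 in WT, and 0.031 and 0.018 with the block.

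In the other 4 lists, as in those above, 0 genes were called without the block. Among the SKN-1 regulators (9 tested) the Mediator subunit gene *mdt-15* had log2 changes of -0.01 in noNSUN and -0.16 in WT, and *ogt-1*, the O-GlcNAc transferase, 0.01 in each. The nuclear exporter *xpo-1* (0.05 and 0.03) and the TOR kinase *let-363* (-0.02 and 0.07) were the most abundant of the 7 HLH-30 regulators and Mondo/Max partners. For HIF-1 (10 tested) the ubiquitin ligase genes *cul-2* (-0.03 and 0.02) and *rbx-1* (-0.01 and 0.05) were the most abundant. Of the 5 genes of ER stress sensing and *xbp-1* splicing, *ire-1*, the kinase and nuclease that cuts *xbp-1*, had log2 changes of -0.16 and -0.18 (SE 0.11 each), and *pek-1*, the PERK kinase, 0.25 and 0.28 (SE 0.19 each). None of the genes named in these sentences was called.

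Among genes known as targets of these factors, heat-shock genes and an ER chaperone gene rose at 27 °C in both genotypes. Of 47 targets tested in 7 lists, 7 passed the test in noNSUN and 7 in WT, all higher at 27 °C, where 0.472% of all genes were called higher in each genotype. Some of these targets passed the filter on low counts through their libraries at 27 °C, as set out below. The lists were also chosen with earlier results of these data known, so the share of all genes is no independent measure of them. With the block 14 were higher and 3 lower in noNSUN and 11 higher and 2 lower in WT, where 1.86% and 1.82% of all genes were called higher. The lower ones were *cysl-2* and *dod-3* in both genotypes and *dod-23* in noNSUN, of which *dod-3*, a DAF-16 target, was named after its values were seen (log2 -0.94 in noNSUN and -1.24 in WT, adjusted p = 0.19 and 0.061, with the block 0.048 and 0.0060). The median log2 change over the targets was 0.18 in noNSUN and 0.16 in WT.

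The HSF-1 targets carried most of this. Of 9 tested, 5 rose in noNSUN and 5 in WT. The small heat-shock gene *hsp-16.2* had 1024 counts summed over 3 noNSUN libraries at 27 °C and 12 at 20 °C, and 1015 counts in WT at 27 °C and 7 at 20 °C. Its log2 change was 6.76 (SE 0.37) in noNSUN and 7.39 (SE 0.40) in WT (edgeR adjusted p = 1.2e-06 and 1.0e-06). The inducible HSP70 gene *hsp-70* had 804 counts in noNSUN at 27 °C and 21 at 20 °C, and 692 in WT at 27 °C and 32 at 20 °C. *hsp-16.41* (1391 against 19 counts in noNSUN, 1239 against 14 in WT) and *hsp-16.1* (135 against 13, 171 against 8) also rose. *hsp-16.1* and *hsp-16.48*, the fifth gene called, have near-identical copies, so the split of their counts is uncertain. These genes were at or close to the floor in single libraries at 20 °C, so that their fold changes are loose. *hsp-16.2*, *hsp-16.41*, *hsp-16.1* and *hsp-70* averaged 0.788 to 3.63 CPM in the groups at 20 °C and passed the filter on low counts through their libraries at 27 °C. Their calls are thus not independent of that filter, and the share of all genes called is no measure of them. The median log2 change of the 9 was 3.74 in noNSUN and 3.71 in WT, while *hsf-1* itself had -0.54 and -0.38. That median includes the genes that passed the filter through their libraries at 27 °C, so it is not independent of a rise either. The heat-shock element was found upstream of 10 of the 11 listed genes, that of *hsp-16.2* ending 57 nt before the annotated start. The 11 include the copies of *hsp-16.1* and of *hsp-16.48* as separate genes, so these matches are not all independent.

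Of the XBP-1 targets (8 tested), 1 rose in each genotype, *hsp-4*, the ER chaperone BiP whose induction reports on the unfolded protein response. It averaged 629 ± 60.5 CPM in noNSUN at 27 °C and 377 ± 24.2 CPM at 20 °C, and 682 ± 54 CPM in WT at 27 °C and 411 ± 55.1 CPM at 20 °C (SD, n = 3 each). The log2 change was 0.74 (SE 0.12, adjusted p = 0.0066) in noNSUN and 0.73 (SE 0.12, adjusted p = 0.0074) in WT, and the difference between the genotypes was 0.01 (95% interval -0.32 to 0.33). With the block 5 of 8 passed in noNSUN and 2 of 8 in WT, all higher, where 1.86% and 1.82% of all genes were called higher. The unfolded protein response element occurred upstream of 2 of these 8 genes, in *hsp-4* ending 76 nt before the start, and the shorter ACGTG upstream of 7 of 8. Footprints on *hsp-4* rose as well, by log2 1.13 (SE 0.26) in noNSUN and 1.15 (SE 0.25) in WT (edgeR adjusted p = 0.0075 and 0.011).

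Of the DAF-16 targets (8 tested), 1 rose in each genotype, though not the same gene. *mtl-1*, a metallothionein, averaged 51.6 ± 10.5 CPM in noNSUN at 27 °C and 9.63 ± 4.46 CPM at 20 °C, and 26.9 ± 5.63 CPM in WT at 27 °C and 9.98 ± 3.89 CPM at 20 °C (SD, n = 3 each). Its log2 change was 2.44 (SE 0.34, adjusted p = 0.0029) in noNSUN and 1.43 (SE 0.35, adjusted p = 0.091, with the block 0.0051) in WT, and the difference between the genotypes was 1.01 (SE 0.49, adjusted p = 1.00). The fatty acid desaturase gene *fat-5* averaged 177 ± 3.32 CPM in noNSUN at 27 °C and 129 ± 9.51 CPM at 20 °C, and 182 ± 13 CPM in WT at 27 °C and 120 ± 21 CPM at 20 °C (SD, n = 3 each), with adjusted p = 0.13 in noNSUN (0.018 with the block) and 0.038 in WT, and a difference between the genotypes of -0.14 (SE 0.17, adjusted p = 1.00). The DAF-16 binding element was found upstream of 6 of the 11 listed genes.

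In the other target lists 0 genes were called. Of the genes of the PQM-1 class (5 tested), *dod-23* averaged 187 ± 32.9 CPM in noNSUN at 27 °C and 295 ± 73.0 CPM at 20 °C, and 66.4 ± 4.70 CPM in WT at 27 °C and 96.0 ± 24.1 CPM at 20 °C (SD, n = 3 each). Its log2 change with heat was -0.65 in noNSUN and -0.54 in WT (adjusted p = 0.21 and 0.42, with the block 0.017 and 0.12), and it differed between the genotypes: it was higher in noNSUN than in WT by log2 1.497 (SE 0.22, adjusted p = 0.039) at 27 °C and 1.61 (SE 0.21, adjusted p = 0.0089) at 20 °C. *dod-19* had log2 changes of -0.24 and 0.39 (SE 0.23 each). Of the SKN-1 targets (5 tested), *gcs-1*, which makes glutathione, had 0.28 in each genotype (SE 0.10) and *gst-7* 0.20 and 0.16 (SE 0.22 each).

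Of the HLH-30 targets (8 tested), the autophagy gene *lgg-1* had log2 changes of 0.26 and 0.31 (SE 0.11 each) and the proton pump subunit *vha-16* -0.15 and -0.33 (SE 0.18 each). The E-box was found upstream of 0 of the 9 listed. Of the 4 HIF-1 targets, *cysl-2*, a cysteine synthase family gene, averaged 103 ± 12.5 CPM in noNSUN at 27 °C and 175 ± 34.8 CPM at 20 °C, and 78.1 ± 21.4 CPM in WT at 27 °C and 186 ± 126 CPM at 20 °C (SD, n = 3 each). It passed only with the block (-0.76, adjusted p = 0.56, with the block 0.032, in noNSUN, and -1.24, adjusted p = 0.17, with the block 0.0015, in WT). The prolyl hydroxylase gene *phy-2* had 0.23 and 0.31 (SE 0.32 each). The hypoxia response element was found upstream of 3 of the 4.

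**Figure D5:**
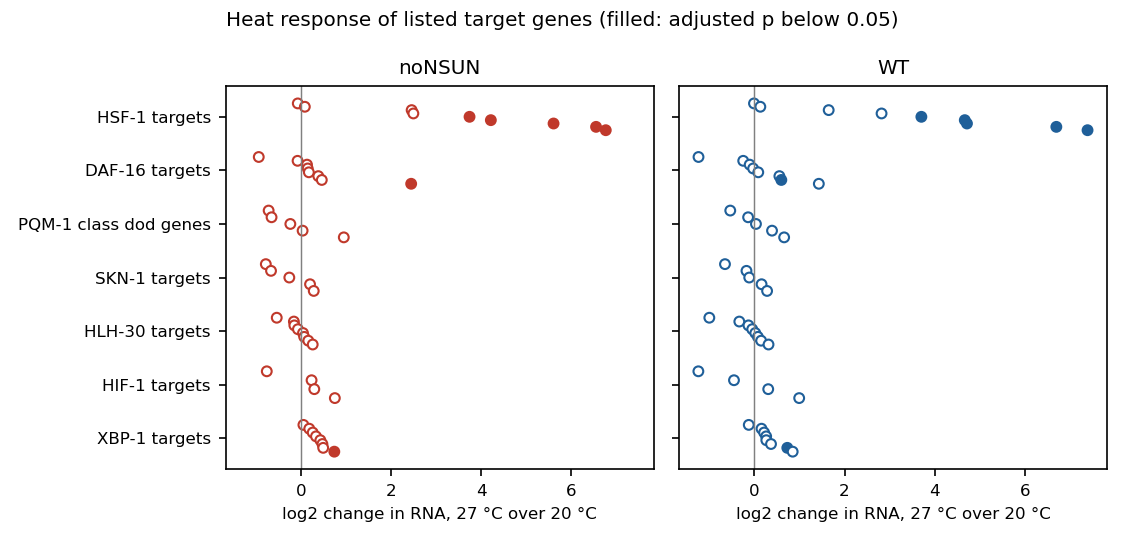
Log2 change in RNA at 27 °C over 20 °C for the listed targets of each factor that could be tested (1 point per gene, filled where the adjusted p is below 0.05) in noNSUN (left) and WT (right). HSF-1 targets reach log2 changes of 6.76 in noNSUN and 7.39 in WT, and in the SKN-1, HLH-30, HIF-1 and PQM-1 lists no point is filled.

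In footprints, 31 of the 58 listed targets passed the filter on low counts. Of these 12 rose in noNSUN and 10 in WT at 27 °C, where 1.05% and 0.924% of the genes tested were called higher, among them 9 of 11 HSF-1 targets in each genotype. Genes with few footprints at 20 °C could pass the filter only through the libraries at 27 °C, so these counts are not independent of a rise. Between the genotypes 3 listed genes were called in footprints at 20 °C and 1 at 27 °C, chosen here after their values were seen. At 20 °C *dod-23* (1.29) and *sip-1*, a small heat-shock protein (1.00), were higher and *daf-41* (-0.98) lower in noNSUN than in WT (log2, edgeR adjusted p = 0.019, 0.046 and 0.041). At 27 °C *hsp-90* footprints were lower in noNSUN by log2 -1.18 (SE 0.23, adjusted p = 0.025), while its RNA differed by -0.28 (SE 0.11, adjusted p = 1.00). The share of all genes tested that passed in those comparisons was 1.72% at 20 °C and 0.0616% at 27 °C.

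The coding sequences of the 9 genes were compared with those of 10684 tested genes, as a description. *hlh-30* had a GC content of 54.8%, above 98.0% of genes. The short *hsb-1* reading frame (240 nt) used UUG, a leucine codon, for 5.00% of its codons, above 99.7% of genes, and *ddl-1* for 3.70% (above 96.7%). Proline made up 10.2% of the codons of *pqm-1* (above 96.2%). None of these 4 genes passed the filter on low footprint counts.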

How the data were processed

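RNA-seq and ribosome profiling libraries were made from the same lysates. Per the study's methods and the submitters' processing notes, reads were trimmed (Trimmomatic 0.39), cleared of ribosomal RNA and aligned to WBcel235 (HISAT2 2.1.0). The authors deposited raw counts per gene: RNA reads counted with HTSeq (strand setting not given in the sources used here), and in-frame, uniquely aligned footprints on the longest coding sequence without its first codons. Groups were taken from the sample labels. The study calls the 3 samples of a group biological replicates; what a shared number stands for was not given, and p-values measure the spread between these samples.

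Each assay was fitted over its 12 libraries with edgeR 4.0.16 (R 4.3.3): trimmed mean normalisation, filterByExpr (minimum count 10, total 15), quasi-likelihood test (two-sided) and Benjamini-Hochberg adjustment over all genes tested, with an adjusted p below 0.05 as the threshold. CPM used the same normalised library sizes. SE was the log2 change over the square root of F, and 95% intervals were 1.96 SE to each side. Translation efficiency was the interaction of assay and group over 24 libraries. Same-numbered RNA samples deviated together in all 4 comparisons of heat or genotype (r = 0.18 to 0.66, lowest to highest of 3 pairs each), so the RNA fit was repeated with that number as a blocking factor; the numbers come from the sample titles. Samples numbered 2 and 3 also correlated (0.10 to 0.43). Footprint samples did not pair (mean r 0.077). Alternatives were DESeq2 1.42.0, its size factors, no filter, only the compared libraries, the block, and libraries or replicates left out. Scripts were tested on simulated data.

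The 9 genes and all lists were chosen with earlier results of these data known. Named from each list were up to 4 genes with the largest RNA heat change among those called, or else the 2 with the highest mean CPM, and for each of the 9 genes the 2 most similar genes averaging 10 CPM or more, except a gene known by ID only. Of the genes this rule names in the lists, 1 is not reported here. Motifs were searched in 200 nt before each annotated gene start. Intervals cover the spread between samples, and the floor of 3 counts counting error only.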

Additional observations from a re-analysis of the deposited data

How the results depend on the processing

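Over all alternatives of the fits without a block, 982 of 1009 log2 changes of the 9 genes stayed on their side of the threshold, 19 passed it newly and 8 no longer did. A sign change was counted as a reversal where a value was called or both exceeded their SE: 81 values changed sign and 0 reversed. With the replicate block the RNA heat contrasts called 443 genes in noNSUN and 459 in WT (2 and 3 of the 9 genes, against 0 and 0), the genotype contrasts 23 at 27 °C and 160 at 20 °C (against 3 and 9). In footprints the block, whose numbers did not pair those samples, called 87 and 32 genes with heat (against 56 and 21; *xbp-1* in noNSUN too, 1 of 9), 6 at 27 °C and 56 at 20 °C (against 1 and 28). In translation efficiency, a lysate block called 19 genes with heat in noNSUN, 3 for genotype at 27 °C and 22 at 20 °C (against 0, 0 and 4). The block changed no other call of the 9 genes. The cause of these differences was not tested.

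DESeq2 called 1 of the 9 RNAs with heat in WT (*hif-1*) and 175 genes there, 10 genes for genotype at 27 °C and 18 at 20 °C. For footprints it called 2 at 27 °C and 17 at 20 °C, and for translation efficiency 15 and 1 genes with heat in noNSUN and WT, 1 at 27 °C and 31 at 20 °C. Without the filter 1 RNA passed in WT (*hif-1*), 6 and 18 genes passed for genotype at 27 and 20 °C, and in footprints 0 of 9 in WT, and 3 and 9 genes for genotype. With the compared libraries alone 1 of the 9 RNAs passed in noNSUN (*hsf-1*), among 239 genes, 23 genes in WT, and 5 and 0 for genotype at 27 and 20 °C; in footprints 4 genes passed at 27 °C.

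Leaving out a library or replicate number in turn gave, for RNA, 0 to 2 of the 9 genes and 13 to 587 genes with heat in noNSUN, 0 to 4 and 8 to 583 in WT, 0 to 72 for genotype at 27 °C, 0 to 152 at 20 °C and 0 to 5 for the difference between responses. Within the blocked fit, an alternative chosen after seeing the data, 0 to 4 of the 9 passed in each genotype. In footprints the ranges were 0 to 1 of 9 and 26 to 78 genes in noNSUN, 0 to 1 and 10 to 37 in WT, 0 to 5 and 0 to 42 for genotype, and 0 to 7 for the difference. In translation efficiency they were 0 to 2, 0 to 1, 0 to 4 and 0 to 42 genes. Footprint depth (as few as 22761 counts in a library) left the other 8 genes below the filter, with wide errors in the fit without it.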
